A study of Mus musculus with 30 samples.

Results

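The genes Id1, Id2, Id3, Id4, Smad6, Smad7, Bambi, Skil, Ski and Tgif1 restrain BMP and TGF-beta signalling or are direct outputs of it, and their transcripts were followed through a cycloheximide time course in a pair of mouse cell lines. They were taken by gene symbol from the Ensembl identifiers of the count table, and all 10 were found among its 57186 identifiers. The fibroblast line NIH/3T3 was kept in DMEM with fetal bovine serum. The embryonic stem cell line CGR8 was kept in serum-free N2B27 medium with 2i, a mix of kinase inhibitors, and the cytokine LIF. Both lines carry a genotype labelled ROSA26 SLT knock-in, at 0 h and later alike, and the labels do not give a clone. Cycloheximide, which blocks translation elongation, was used at 0.1 µg/mL, and RNA was sequenced at 0, 1, 2, 5 and 48 h. With replicates A, B and C of each line and time this makes 30 libraries in 10 groups of 3. The labels attach this dose to the 0 h libraries too, and these are taken as the starting point of each line from their time label alone.

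BMP and TGF-beta ligands bind pairs of serine/threonine kinase receptors, which phosphorylate receptor SMADs. These join SMAD4, enter the nucleus and switch on target genes, several of which shut the pathway down again. The ID proteins are helix-loop-helix proteins without a DNA-binding region that sequester E proteins such as TCF3, TCF4 and TCF12, and the Id genes are textbook BMP targets. SMAD6 and SMAD7 are the inhibitory SMADs, BAMBI is a pseudoreceptor without a kinase, SKI and SKIL (SnoN) are co-repressors that bind SMAD complexes, and TGIF1 is a homeodomain co-repressor. In mouse embryonic stem cells ID proteins are known for holding back differentiation in serum and BMP, and in fibroblasts TGF-beta is known for driving matrix genes.

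Promoter windows are shown because SMAD proteins are known to bind short motifs near the starts of several of these genes. RefSeq promoters (build GRCm38.p6, 250 bases before to 50 bases after the start) were given for 6 of the 10 genes, that is for all but Id1, Smad7, Bambi and Skil. They were searched on both strands for GTCTAGAC, the palindrome that SMAD3 and SMAD4 bind, and for GGCGCC, a GC-rich element described for the BMP SMADs. The motifs do not overlap each other in these windows. The capitals mark the motif in each 30-base window, printed 5′ to 3′ on the strand of the gene.
Smad6, chr9:64022045-64022074, minus strand: gccgccaaagtGTCTAGACtggcatatgat
Id2, chr12:25096306-25096335, minus strand: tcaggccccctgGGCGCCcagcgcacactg
Id4, chr13:48260956-48260985, plus strand: ctcgggttgcccGGCGCCccgccctcgcca
Ski, chr4:155222738-155222767, minus strand: gcgcgtggatgtGGCGCCgggcccgggcgg
The palindrome of Smad6 began at position -4 from the annotated start, and GTCTAGAC is held by 0.213% of the 32851 RefSeq promoters of the same length. The GGCGCC of Id2, Id4 and Ski began at positions -231, -148 and -220, and 11.9% of those promoters hold this shorter motif. The Id3 promoter and the 5 listed promoters of Tgif1 hold neither sequence. The shorter GTCTG was also searched and is held by 49.6% of all promoters, too many to be shown. These matches describe letters in the windows and are not measured binding sites.

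Library totals ranged from 18.2 to 30.5 M counts, and all 10 genes passed the filter on low counts in the fit of each line and in the fit of both. Levels are CPM, counts scaled to the library total times its TMM factor, and changes are log2 fold changes from edgeR's quasi-likelihood F test with Benjamini-Hochberg adjustment over all genes tested. A gene was called, and is said to have risen or fallen, at an adjusted p under 0.05. Nothing in the labels says that the replicates are separate cultures, so p-values measure the spread between these libraries. In bulk RNA a CPM is a share of the library, and fewer cells with a transcript cannot be told apart from less of it per cell. The NIH/3T3 library of 1 h, replicate C, stood apart from its replicates, with a chi-square per degree of freedom of 76.2 and 89.1 against A and B, where A and B differed by 4.41. The CGR8 libraries of 2 h and 5 h were also uneven, at 37.5 to 61.7 and 31.7 to 73.7, and CGR8 0 h replicate B lay at 36.2 and 36.3 from A and C. NIH/3T3 2 h replicate A lay at 44.6 and 36.65 from B and C, which differed by 7.24, and leaving it out changed no call of the 10 genes at 2 h against 0 h in that line.

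Markers separated the lines as labelled. Of the 6 naive stem cell markers, Pou5f1, Nanog, Zfp42, Esrrb and Dppa5a did not exceed 0.383 CPM in any NIH/3T3 library, while Klf4 lay at 183 to 398 CPM in NIH/3T3 and 135 to 396 CPM in CGR8 and did not separate them. Of the 6 fibroblast markers, Col1a1, Col1a2, Col3a1 and Lox did not exceed 0.726 CPM in CGR8. Pdgfrb lay at 1.68 to 2.93 CPM in CGR8 and 14.2 to 57.2 CPM in NIH/3T3, and Fbn1 at 1.94 to 4.2 and 141 to 374 CPM. In CGR8 the summed level of 5 primed epiblast and mesoderm markers was 32.4 to 33.7 CPM at 0 h and 16.7 to 28.1 CPM at 48 h. The 3 neural markers summed to 16.5 to 19.96 CPM at 0 h and 25.8 to 30.6 CPM at 48 h, the 3 trophoblast markers to 5.19 to 6.25 and 1.03 to 1.85 CPM, and the 5 primitive endoderm markers to 2.22 to 2.85 and 4.57 to 4.99 CPM. The primed epiblast and mesoderm sum was mostly Otx2, at 6.45 to 23.1 CPM over the course, and Eomes, at 2.84 to 22.85 CPM. The neural, trophoblast and primitive endoderm sums of CGR8 rest largely on single genes. The highest neural marker was Nes, at 11.5 to 21.5 CPM over the course. The trophoblast sum was mostly Cdx2, with Elf5 and Hand1 at or below 0.311 CPM. Among the primitive endoderm markers all but Gata4 stayed at or below 0.881 CPM. The 5 osteoblast-like or myogenic markers summed to at most 0.392 CPM in CGR8 and to 690 to 1393 CPM in NIH/3T3, nearly all of it Acta2, with Sp7, Myod1 and Myog at or below 0.186 CPM.

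At 0 h NIH/3T3 held far more Id1 and Id2 transcript than CGR8, and CGR8 held more Bambi and Tgif1. All 10 genes were called between the lines at 0 h, 8 lower and 2 higher in CGR8, where 79.1% of 17549 genes tested were called. Id1 lay at 101 ± 10.1 CPM (SD, n = 3) in NIH/3T3 and 7.11 ± 0.889 CPM in CGR8, a log2 difference of -3.87 (SE 0.165, adjusted p = 1.83e-18). Id2 lay at 32.6 ± 1.28 and 1.27 ± 0.236 CPM, a log2 difference of -4.70 (SE 0.199, adjusted p = 1.55e-18). Id3 stood much closer, at 106 ± 3.38 CPM in NIH/3T3 and 72.8 ± 2.21 CPM in CGR8 (log2 difference -0.59, SE 0.118, adjusted p = 4.95e-05). Id4, Smad6, Smad7 and Skil were lower in CGR8 by log2 differences of -1.74, -1.19, -1.25 and -1.18, and Ski by -0.41. Tgif1 was higher in CGR8 by 1.20 (SE 0.1) and Bambi by 1.00 (SE 0.141). For Ski the adjusted p of 0.013 became 0.0521 without NIH/3T3 0 h replicate A and 0.0547 without CGR8 0 h replicate C, within a range of 3.66e-05 to 0.0547 over its alternatives. The lines differ in medium as well as in cell type, and the parts of medium and cell type cannot be told apart.

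Per kilobase of annotated exon, which allows genes to be set side by side, Id1 led in NIH/3T3 at 0 h with 86.9 ± 8.70 CPM per kb (SD, n = 3), ahead of Id3 at 59.5 ± 1.90 and Ski at 23.1 ± 1.69. Id2 and Smad7 followed at 13.4 ± 0.524 and 13.2 ± 0.934 CPM per kb, and their libraries overlapped. Tgif1 lay at 9.16, Skil at 3.41, Smad6 at 1.99, Id4 at 1.47 and Bambi at 1.14 CPM per kb, with no overlap between neighbours in that order. In CGR8 at 0 h Id3 came first with 40.6 ± 1.23 CPM per kb, then Tgif1 at 21.7 ± 1.82 and Ski at 17.98 ± 0.579. Id1 at 6.13 and Smad7 at 5.72 CPM per kb overlapped, and so did Id2 at 0.522 and Id4 at 0.455, while Bambi at 2.35, Skil at 1.55 and Smad6 at 0.899 stood apart from their neighbours. Id3 was thus the one ID gene of the 4 with a high level per kilobase in both lines.

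In NIH/3T3 most of the genes rose by 2 h and fell between 2 and 5 h, and the 4 ID genes were above the start at 48 h. At 1 h 3 of the 10 genes were called, all higher (Id1, Id3 and Skil), where 0.732% of 13941 genes tested were called. At 2 h 9 of 10 were called, 8 higher and Ski lower, against 35.0% of all genes, and the median log2 fold change of the 10 was 0.86 against -0.005 over all genes. At 5 h 8 of 10 were called against 51.0%, with Id2, Bambi and Skil higher and Id1, Id3, Smad6, Smad7 and Tgif1 lower. At 48 h 9 of 10 were called against 52.3%, with the 4 ID genes, Smad6 and Ski higher, Smad7, Bambi and Tgif1 lower, and Skil not called. The count at 1 h rests on single libraries: it was 0 without 0 h replicate A, 1 without 0 h replicate C or 1 h replicate A or B, and 6 without 1 h replicate C. From 2 to 5 h 8 of 10 genes fell and 0 rose (23.1% of all genes called), and from 5 to 48 h 6 rose and 3 fell (65.6% called). The 4 ID genes and Smad6 fell and then rose, whereas Skil and Tgif1 fell in both steps and Smad7 was not called in the second. Both steps use the 5 h libraries, so a deviation of these moves them in opposite directions. The summed fibroblast markers of NIH/3T3 lay at 6795 to 7376 CPM at 0 h, 4232 to 5549 CPM at 2 h, 4449 to 5188 CPM at 5 h and 10050 to 10410 CPM at 48 h, with no overlap of the later groups with 0 h at these times. The primitive endoderm markers summed to 42.5 to 44.7 CPM at 0 h and 85.0 to 86.6 CPM at 48 h, all of it Gata4 and Pdgfra, with Gata6, Sox17 and Foxa2 at 0 counts. The part of either in the changes of the 10 genes was not tested.

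In CGR8 3 of 4 called genes fell at 2 h and 5 of 6 at 48 h, while at 5 h the number called was near the share of all genes. At 1 h 0 of 10 genes were called by edgeR, 2 had an unadjusted p under 0.05, DESeq2 called 0 and voom with quality weights 2, where edgeR called 0.270% of 15933 genes tested. At 2 h 4 of 10 were called against 19.9% of all genes, with Id3 higher and Id1, Ski and Tgif1 lower. At 5 h 5 of 10 were called, close to the 52.1% over all genes, with Bambi and Skil higher and Id4, Smad7 and Ski lower, and with a mean of at least 5 CPM 2 were higher and 2 lower. The count at 5 h was 3 without 0 h replicate C or without 5 h replicate B. At 48 h 6 of 10 were called against 27.8%, with Skil higher and Id1, Id4, Smad6, Smad7 and Bambi lower, and the median log2 fold change of the 10 was -0.44 against -0.003 over all genes. From 2 to 5 h 4 of 10 were called (19.1% over all genes), Id1 higher and Id3, Id4 and Smad7 lower, and from 5 to 48 h 5 of 10 (57.5%), Smad7 and Ski higher and Id3, Smad6 and Bambi lower.

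Whether the lines responded differently was tested as an interaction in 1 model of all 30 libraries, as the CGR8 change minus the NIH/3T3 change. At 1 h 1 of the 10 genes, Id1, differed, where 0.160% of 17549 genes tested did. At 2 h 5 of 10 differed against 2.02% of all genes, each of them lower in CGR8 relative to NIH/3T3. At 5 h 4 of 10 differed against 13.3%, and at 48 h 7 of 10 against 21.9%. At 5 h the median of all genes depended on the scaling, at 0.13 with TMM, 0.05 with RLE factors and -0.06 with library totals alone, and 61.6%, 45.9% and 31.5% of all called genes were higher. Without CGR8 0 h replicate A the count at 5 h was 2.

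**Figure D1:**
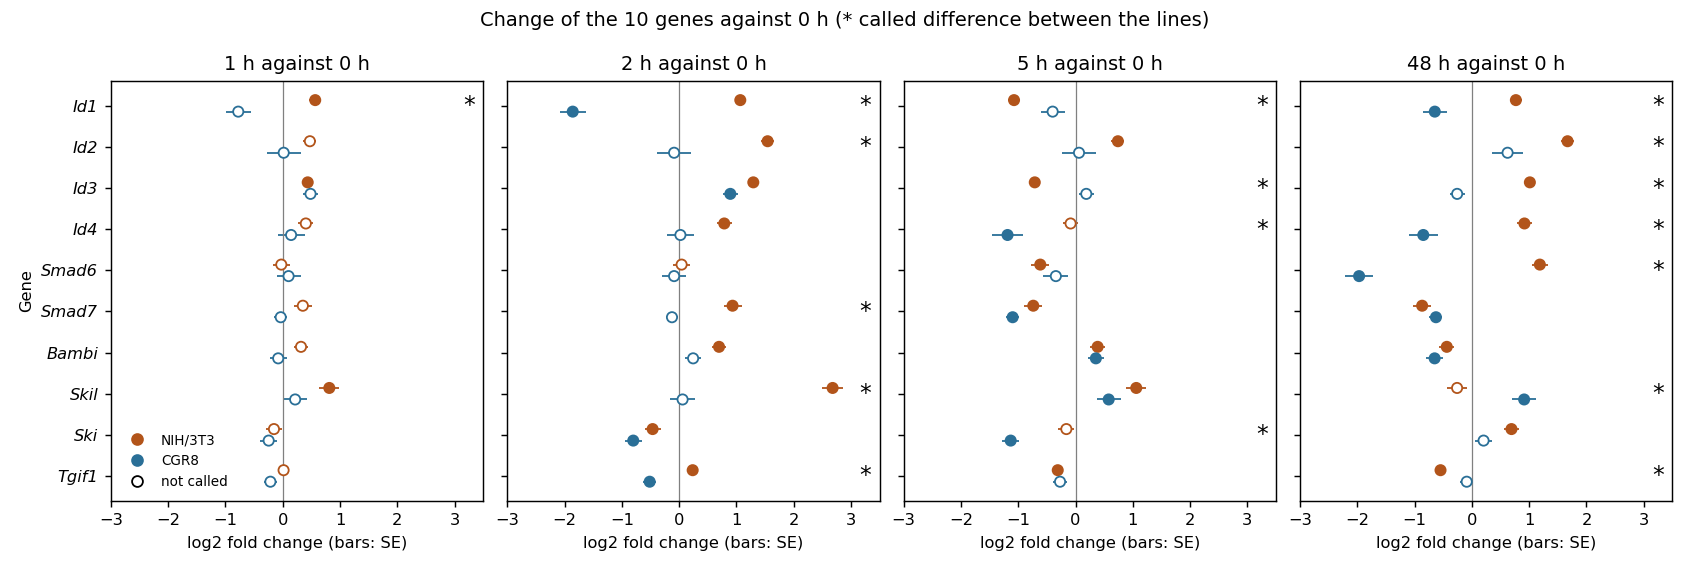
Log2 fold change against 0 h (x axis, bars are the standard error) of each of the 10 genes (y axis) at 1, 2, 5 and 48 h, with NIH/3T3 in orange and CGR8 in blue, filled points called at an adjusted p under 0.05 and open points not called. Asterisks mark called differences between the lines: Id1 has one in each panel, and at 2 h the NIH/3T3 points of Id1, Id2 and Skil sit above 1 while those of CGR8 sit near or below 0.

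Id1 moved in opposite directions in the lines within 2 h. In NIH/3T3 it lay at 89.1, 106 and 107 CPM at 0 h, at 155, 142 and 151 CPM at 1 h and at 228, 187 and 219 CPM at 2 h. It then dropped to 45.9, 51.0 and 46.9 CPM at 5 h, below each starting library, and stood at 156, 171 and 188 CPM at 48 h. None of the 4 later groups overlapped the 0 h group. Id1 rose by 0.57 on the log2 scale at 1 h (SE 0.1, adjusted p = 0.00822) and by 1.07 at 2 h (SE 0.101, adjusted p = 1.68e-06), fell by 1.07 at 5 h (SE 0.102, adjusted p = 7.05e-07) and was 0.77 above the start at 48 h (SE 0.1, adjusted p = 1.11e-05). The rise at 1 h had an adjusted p of 0.0883 without 0 h replicate A and of 0.17 in a fit of the compared groups alone, within a range of 3.54e-06 to 0.17 over its alternatives.

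In CGR8 Id1 lay at 6.93, 8.07 and 6.32 CPM at 0 h, at 4.41, 4.19 and 3.85 CPM at 1 h and at 1.59, 1.87 and 2.39 CPM at 2 h. It stood at 6.17, 5.40 and 4.63 CPM at 5 h and at 6.05, 2.95 and 4.61 CPM at 48 h. Each later library lay below the 3 of 0 h. Id1 fell by 1.86 on the log2 scale at 2 h (SE 0.229, adjusted p = 0.000103), the 1 h value of -0.78 was not called (SE 0.216, adjusted p = 0.219), and from 2 to 5 h it rose by 1.46 (SE 0.233, adjusted p = 0.000695). The fall of 0.65 at 48 h (SE 0.212, adjusted p = 0.0318) was not called without 48 h replicate B (-0.41, adjusted p = 0.145) or C (0.0787), or without 0 h replicate A (0.0634) or B (0.117). Its adjusted p had a range of 0.00203 to 0.145 over its alternatives. The response differed between the lines by -1.32 at 1 h (SE 0.225, adjusted p = 0.00309), by -2.87 at 2 h (SE 0.237, adjusted p = 2.78e-09) and by -1.43 at 48 h (SE 0.222, adjusted p = 2.5e-05). At 5 h the difference had the other sign, 0.76 (SE 0.223, adjusted p = 0.0225). It fell to 0.57 with library totals alone (adjusted p = 0.0989) and to 0.47 without CGR8 5 h replicate A (0.259), and the adjusted p ranged from 0.00919 to 0.259 over the alternatives.

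Id3 shared the early rise in both lines. The NIH/3T3 libraries gave 106, 103 and 110 CPM at 0 h, 227, 271 and 285 CPM at 2 h, 65.5, 69.5 and 60.1 CPM at 5 h and 210, 220 and 214 CPM at 48 h. Those of CGR8 gave 73.3, 74.7 and 70.3 CPM at 0 h, 140, 125 and 140 CPM at 2 h, 94.5, 76.5 and 77.6 CPM at 5 h and 47.7, 70.9 and 64.2 CPM at 48 h. The 2 h libraries were the highest of the course in each line, and the 0 and 48 h libraries of CGR8 overlapped. Id3 rose at 2 h by 1.29 on the log2 scale in NIH/3T3 (SE 0.096, adjusted p = 7.68e-08) and by 0.89 in CGR8 (SE 0.131, adjusted p = 0.000404). The difference of -0.35 was not called (SE 0.166, adjusted p = 0.479). At 5 h it fell by 0.71 in NIH/3T3 (SE 0.096, adjusted p = 1.86e-05) and lay 0.19 above the start in CGR8 (adjusted p = 0.241). This difference of 0.99 was called (SE 0.168, adjusted p = 0.000173). At 48 h it rose by 1.01 in NIH/3T3 (SE 0.095, adjusted p = 3.74e-07) and lay at -0.26 in CGR8 (adjusted p = 0.157), a difference of -1.29 (SE 0.167, adjusted p = 2.24e-06). The 1 h rise of 0.44 in NIH/3T3 (SE 0.095, adjusted p = 0.0393) was lost in 9 of 14 alternatives, with adjusted p from 1.06e-06 to 0.37. It was lost with the replicate block (adjusted p = 0.0549) and with each library of 0 or 1 h left out except 1 h replicate C.

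Id2 changed in NIH/3T3 and was not called in CGR8 at any time against 0 h. Its NIH/3T3 libraries lay at 32.7, 33.8 and 31.2 CPM at 0 h, at 80.3, 104 and 100 CPM at 2 h, at 54.5, 59.1 and 49.5 CPM at 5 h and at 102, 107 and 102 CPM at 48 h. All later libraries were above all those of 0 h, and the 5 h level stayed above the start, unlike those of Id1 and Id3. Id2 rose by 1.54 on the log2 scale at 2 h (SE 0.115, adjusted p = 7.95e-08), by 0.74 at 5 h (SE 0.114, adjusted p = 6.1e-05) and by 1.67 at 48 h (SE 0.115, adjusted p = 1.49e-08). In CGR8 its level ranged over the course from 0.825 to 2.57 CPM, on 21 to 69 counts per library. The 0 and 48 h groups lay at 1.00 to 1.44 and 1.54 to 2.57 CPM, with a change of 0.62 at 48 h (SE 0.277, adjusted p = 0.106). The response differed between the lines at 2 h (-1.58, SE 0.293, adjusted p = 0.00142) and at 48 h (-1.07, SE 0.28, adjusted p = 0.006). At 1 h the NIH/3T3 change of 0.47 missed the threshold (adjusted p = 0.0684) and passed it with the replicate block (0.0499) and without 1 h replicate C (0.00454).

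Id4 had the lowest level per kilobase of the 4 ID genes in NIH/3T3 at 0 h. It lay there at 5.58, 5.63 and 5.82 CPM at 0 h, 9.32, 10.9 and 9.16 CPM at 2 h, 5.27, 6.12 and 4.65 CPM at 5 h and 10.6, 10.4 and 11.2 CPM at 48 h. The 2 and 48 h groups lay above the start and the 5 h group overlapped it. Id4 rose by 0.79 on the log2 scale at 2 h (SE 0.128, adjusted p = 0.000386) and by 0.92 at 48 h (SE 0.127, adjusted p = 2.03e-05). In CGR8 it lay at 1.96, 1.37 and 1.93 CPM at 0 h, at 0.666, 0.736 and 0.894 CPM at 5 h and at 0.954, 0.746 and 1.23 CPM at 48 h, on 15 to 61 counts per library in these groups. There the 5 and 48 h libraries all lay below the start, with a fall of 1.19 at 5 h (SE 0.265, adjusted p = 0.00149) and of 0.85 at 48 h (SE 0.251, adjusted p = 0.0189). The fall at 48 h was not called without 0 h replicate A or C or 48 h replicate A or B, and its adjusted p ranged from 0.00153 to 0.0922. The difference between the lines was -1.01 at 5 h (SE 0.278, adjusted p = 0.0151, and 0.054 without CGR8 0 h replicate A, in a range of 0.00498 to 0.054) and -1.79 at 48 h (SE 0.263, adjusted p = 1.28e-05). In the GENCODE M21 annotation Id4 shares exon sequence with the opposite-strand genes A330033J07Rik and Gm49291, and because the use of strand in the counting is not given in the sources used here, its counts are uncertain. The other 9 genes overlap no gene there.

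**Figure D2:**
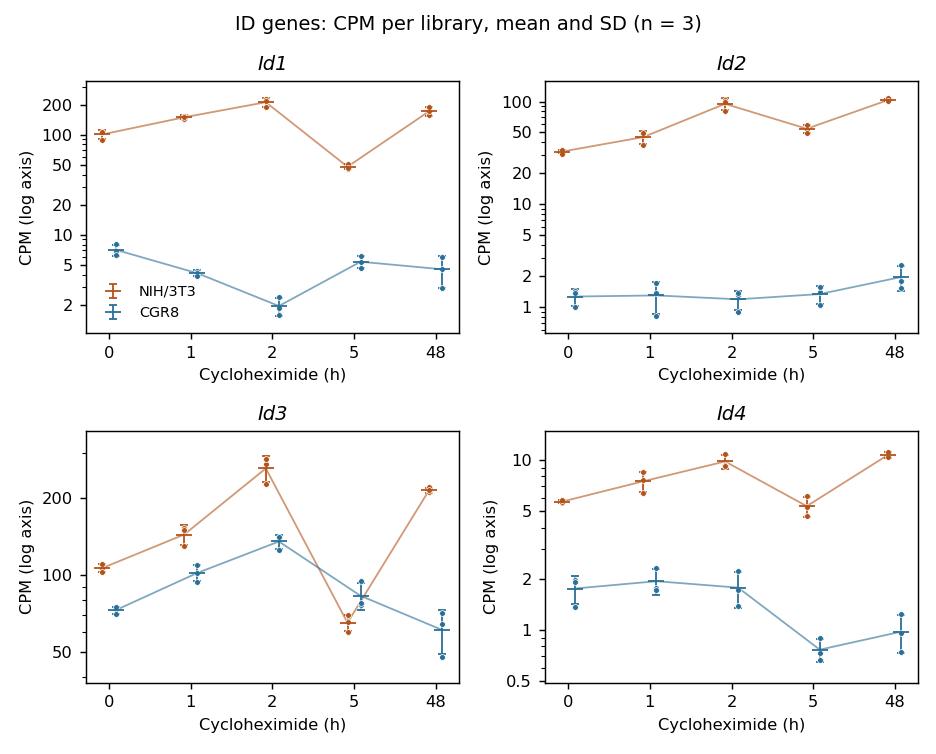
CPM on a log axis (y) of the 4 ID genes against hours of cycloheximide (x, evenly spaced), with 1 point per library, horizontal ticks at the mean and bars of 1 SD (n = 3), NIH/3T3 in orange and CGR8 in blue. Id1 falls at 2 h in CGR8 to 1.59 to 2.39 CPM while it rises in NIH/3T3 to 187 to 228 CPM, and Id3 peaks at 2 h in both lines.

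Smad6, the inhibitory SMAD best known for curbing BMP receptors, was not called within 2 h and went opposite ways by 48 h. The NIH/3T3 libraries lay at 6.17, 5.21 and 7.72 CPM at 0 h, at 3.91, 4.68 and 3.95 CPM at 5 h and at 13.4, 13.8 and 16.6 CPM at 48 h. In CGR8 it lay at 3.24, 3.23 and 2.18 CPM at 0 h, at 2.35, 2.06 and 2.41 CPM at 5 h and at 0.954, 0.821 and 0.411 CPM at 48 h, the last on 10 to 26 counts per library. All 48 h libraries of NIH/3T3 were above the start and all of those of CGR8 below it. Smad6 fell by 0.62 on the log2 scale at 5 h in NIH/3T3 (SE 0.154, adjusted p = 0.00337) and rose by 1.19 at 48 h (SE 0.142, adjusted p = 4.41e-06). In CGR8 it fell by 1.97 at 48 h (SE 0.244, adjusted p = 2.55e-05) and was not called earlier. The difference between the lines at 48 h, -3.17 (SE 0.277, adjusted p = 3.53e-09), was the largest of the 10 genes at that time and kept its call in each alternative that was fitted.

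Smad7, which curbs both the TGF-beta and the BMP receptors, ended lower in both lines. In NIH/3T3 it lay at 61.4, 54.9 and 62.9 CPM at 0 h, at 81.8, 93.6 and 52.8 CPM at 1 h and at 93.5, 127 and 121 CPM at 2 h. It then lay at 35.7, 34.2 and 37.6 CPM at 5 h and at 31.1, 32.2 and 35.0 CPM at 48 h. The 2 h libraries were all above the start and those of 5 and 48 h all below it, while at 1 h replicate C alone lay under the 0 h range. Smad7 rose by 0.93 on the log2 scale at 2 h (SE 0.158, adjusted p = 0.000525), fell by 0.74 at 5 h (SE 0.16, adjusted p = 0.00115) and by 0.87 at 48 h (SE 0.161, adjusted p = 0.000299). At 1 h the change of 0.35 was not called (adjusted p = 0.412), and without replicate C it was 0.54 (adjusted p = 0.0125, in a range of alternatives that includes 8.49e-05 for voom with quality weights).

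In CGR8 Smad7 lay at 25.4, 28.1 and 24.2 CPM at 0 h, at 27.3, 22.7 and 21.3 CPM at 2 h, at 11.6, 11.9 and 12.8 CPM at 5 h and at 15.95, 16.9 and 17.4 CPM at 48 h. The 2 h libraries overlapped the start, and those of 5 and 48 h lay below it. Smad7 fell by 1.10 on the log2 scale at 5 h (SE 0.116, adjusted p = 3.28e-06) and by 0.63 at 48 h (SE 0.114, adjusted p = 0.000667). The lines differed at 2 h by -1.01 (SE 0.205, adjusted p = 0.00421), and at 5 and 48 h the differences of -0.27 and 0.22 were not called (adjusted p = 0.436 and 0.511).

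Bambi, the pseudoreceptor, ended lower in both lines, and no difference in response between the lines was called at 1, 2, 5 or 48 h. In NIH/3T3 it lay at 5.33, 6.40 and 5.62 CPM at 0 h, at 10.2, 8.28 and 9.72 CPM at 2 h, at 7.78, 7.74 and 7.15 CPM at 5 h and at 4.28, 4.21 and 4.32 CPM at 48 h. In CGR8 it lay at 10.5, 13.7 and 11.6 CPM at 0 h, at 15.6, 17.1 and 13.1 CPM at 5 h and at 8.03, 7.65 and 7.08 CPM at 48 h. Levels were below the start in all 48 h libraries of both lines. Bambi rose in NIH/3T3 by 0.70 on the log2 scale at 2 h (SE 0.125, adjusted p = 0.000764) and by 0.39 at 5 h (SE 0.126, adjusted p = 0.0173), and fell by 0.44 at 48 h (SE 0.132, adjusted p = 0.0108). In CGR8 it fell by 0.65 at 48 h (SE 0.148, adjusted p = 0.0037). The interaction at 48 h was -0.23 with an SE of 0.204 (adjusted p = 0.486). Its rise in CGR8 at 5 h, 0.36 (SE 0.144, adjusted p = 0.0495), had overlapping groups and was lost in 8 of 14 alternatives. Among these were the fits without 0 h replicate A (0.204) or C (0.125) and without 5 h replicate A (0.0908) or B (0.181), and the adjusted p ranged from 0.000554 to 0.204. The rise in NIH/3T3 at 5 h was likewise lost without 0 h replicate A or C or 5 h replicate A or B, with adjusted p up to 0.0729 and down to 0.00111 over its alternatives.

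Skil, which encodes the co-repressor SnoN, showed the largest early rise of the 10 genes in NIH/3T3. It lay there at 32.8, 37.0 and 29.2 CPM at 0 h, at 60.8, 72.3 and 40.5 CPM at 1 h, at 165, 250 and 219 CPM at 2 h, at 68.2, 67.5 and 70.7 CPM at 5 h and at 26.3, 28.4 and 28.1 CPM at 48 h. The 1, 2 and 5 h libraries all lay above the start and the 48 h libraries just under it. Skil rose by 2.68 on the log2 scale at 2 h (SE 0.179, adjusted p = 2.35e-08), which is 6.4-fold, and by 1.06 at 5 h (SE 0.173, adjusted p = 0.000101). The change of -0.26 at 48 h was not called (SE 0.175, adjusted p = 0.229). The rise of 0.81 at 1 h (SE 0.172, adjusted p = 0.0346) was lost without 0 h replicate A (0.173) or C (0.234) and without 1 h replicate A (0.105) or B (0.17), and its adjusted p ranged from 4.88e-09 to 0.414.

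In CGR8 Skil moved slowly and upward. It lay at 16.3, 13.1 and 15.7 CPM at 0 h, at 12.0, 17.2 and 17.7 CPM at 2 h, at 13.9, 23.9 and 29.5 CPM at 5 h and at 28.2, 25.4 and 31.2 CPM at 48 h. The 2 and 5 h groups overlapped the start, replicate A being the low library at both times, and the 48 h libraries were all above it. Skil rose by 0.91 on the log2 scale at 48 h (SE 0.209, adjusted p = 0.00402). The rise of 0.58 at 5 h (SE 0.21, adjusted p = 0.0296) was 0.33 without 5 h replicate C (adjusted p = 0.192) and was also lost without 5 h replicate B (0.0784) or 0 h replicate B (0.0837) or C (0.0569), in a range of 0.000632 to 0.192. The lines differed by -2.57 at 2 h (SE 0.287, adjusted p = 7.43e-07) and by 1.151 at 48 h (SE 0.285, adjusted p = 0.00375), so that the sign of the difference changed between these times.

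Ski fell early in both lines and was back at or above the start by 48 h. Its NIH/3T3 libraries lay at 138, 119 and 128 CPM at 0 h, at 112, 89.6 and 77.8 CPM at 2 h, at 110, 110 and 125 CPM at 5 h and at 205, 213 and 204 CPM at 48 h. In CGR8 it lay at 101, 103 and 96.4 CPM at 0 h, at 63.6, 61.5 and 47.1 CPM at 2 h, at 34.9, 53.8 and 48.4 CPM at 5 h and at 116, 109 and 121 CPM at 48 h. The low points did not overlap the start, at 2 h in NIH/3T3 and at 2 and 5 h in CGR8. Ski fell by 1.13 on the log2 scale at 5 h in CGR8 (SE 0.146, adjusted p = 1.68e-05), where NIH/3T3 had a change of -0.16 (SE 0.138, adjusted p = 0.35), a difference of -0.88 (SE 0.207, adjusted p = 0.00446). It rose by 0.69 at 48 h in NIH/3T3 (SE 0.138, adjusted p = 0.000565) and by 1.33 from 5 to 48 h in CGR8 (SE 0.147, adjusted p = 2.39e-06). At 2 h it fell by 0.80 in CGR8 (SE 0.145, adjusted p = 0.00193) and by 0.46 in NIH/3T3 (SE 0.139, adjusted p = 0.0173). The fall in NIH/3T3 was lost without 0 h replicate A (0.0723) or C (0.0502) and without 2 h replicate B (0.0572) or C (0.102), with adjusted p from 2.24e-07 to 0.102 over the alternatives.

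Tgif1 showed the smallest called change of the 10 genes in NIH/3T3 at 2 h. It lay there at 51.5, 49.6 and 53.6 CPM at 0 h, at 63.4, 57.2 and 61.6 CPM at 2 h, at 43.1, 40.4 and 41.4 CPM at 5 h and at 36.2, 32.7 and 37.0 CPM at 48 h. In CGR8 it lay at 116, 134 and 117 CPM at 0 h, at 104, 77.5 and 75.8 CPM at 2 h, at 101, 99.9 and 103 CPM at 5 h and at 127, 106 and 112 CPM at 48 h. In NIH/3T3 the 2 h group lay above the start and those of 5 and 48 h below it, whereas in CGR8 the 2 h group lay below and the 48 h group overlapped. Tgif1 fell in NIH/3T3 by 0.31 on the log2 scale at 5 h (SE 0.078, adjusted p = 0.00343) and by 0.55 at 48 h (SE 0.078, adjusted p = 2.81e-05), and in CGR8 by 0.51 at 2 h (SE 0.117, adjusted p = 0.00765). The last had an adjusted p of 0.0509 without CGR8 2 h replicate C and ranged from 0.000568 to 0.0688. The rise of 0.24 in NIH/3T3 at 2 h (SE 0.077, adjusted p = 0.0269) was lost without 0 h replicate A (0.0791) or B (0.0863) or 2 h replicate C (0.0618), in a range of 0.00496 to 0.205. The lines differed by -0.70 at 2 h (SE 0.139, adjusted p = 0.00353) and by 0.44 at 48 h (SE 0.14, adjusted p = 0.0234). The latter was not called without NIH/3T3 48 h replicate B (0.0585), CGR8 0 h replicate A (0.0628) or CGR8 48 h replicate A (0.0635), in a range of 8.01e-05 to 0.0934.

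**Figure D3:**
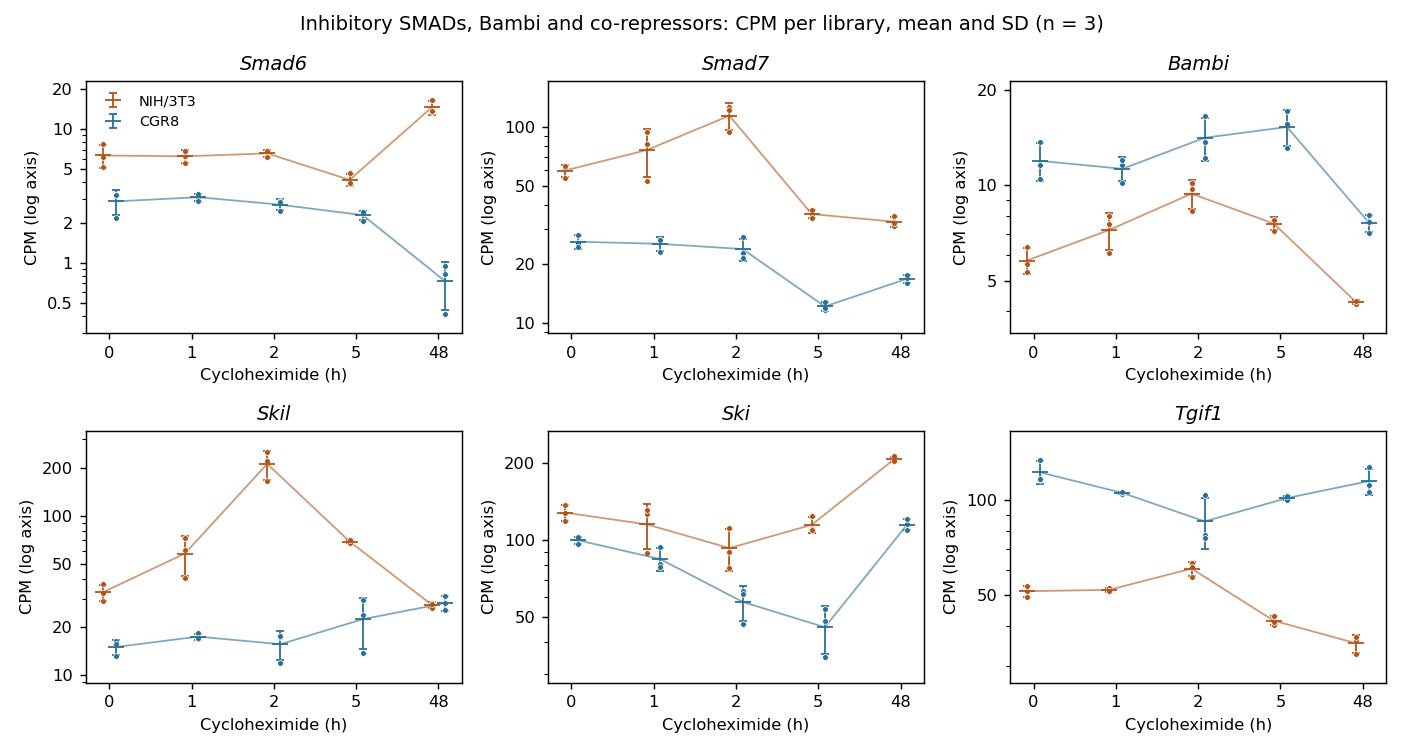
CPM on a log axis (y) of Smad6, Smad7, Bambi, Skil, Ski and Tgif1 against hours of cycloheximide (x, evenly spaced), with 1 point per library, horizontal ticks at the mean and bars of 1 SD (n = 3), NIH/3T3 in orange and CGR8 in blue. Skil peaks at 165 to 250 CPM at 2 h in NIH/3T3 alone, and the Smad6 lines move apart at 48 h to 13.4 to 16.6 CPM in NIH/3T3 and 0.411 to 0.954 CPM in CGR8.

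The other genes of the pathway were counted from a list of 72 symbols in 6 roles, of which 70 matched the table and 44 passed the filter in NIH/3T3 and 57 in CGR8. In NIH/3T3 2 of 44 were called at 1 h (Ccn2 and Junb, both higher), 20 at 2 h (10 higher, 10 lower), 23 at 5 h (11 higher, 12 lower) and 27 at 48 h (15 higher, 12 lower). The counts at 1, 2, 5 and 48 h stand beside 0.732%, 35.0%, 51.0% and 52.3% of all genes, and the median log2 fold change at 5 h was -0.06. Without 1 h replicate C the 1 h count was 9. Junb, an immediate-early transcription factor that TGF-beta also induces, was higher by 1.43 at 1 h and by 3.31 at 2 h on the log2 scale and lay below the start at 5 h, as Smad7 did.

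At 5 h in NIH/3T3, where 51.0% of all genes were called, edgeR called 7 of 11 receptors and co-receptors, 6 of 10 regulators of SMADs, 6 of 9 targets and bHLH partners and 0 of 6 SMAD transducers (1 had an unadjusted p under 0.05). Differences between the roles were not tested. Pmepa1, a TGF-beta-induced inhibitor of SMAD signalling, rose from 24.6 ± 3.28 to 65.1 ± 3.79 CPM (SD, n = 3), by 1.41 on the log2 scale (SE 0.118, adjusted p = 2.46e-07), and Inhba, which encodes the activin A subunit, from 40.1 ± 7.23 to 85.4 ± 7.95 CPM (1.09). The type II activin receptor gene Acvr2b fell from 7.99 ± 0.747 to 3.203 ± 0.0539 CPM (-1.31), Junb from 59.5 ± 3.79 to 26.2 ± 2.18 CPM (-1.18) and the ligand gene Gdf11 from 50.8 ± 2.40 to 22.5 ± 1.35 CPM (-1.18). Pmepa1 thus rose at the time when Id1, Id3, Smad6, Smad7 and Tgif1 had fallen and Id2, Bambi and Skil had risen.

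By 48 h in NIH/3T3 Acvr2b lay at 4.07 ± 0.518 CPM, a fall of 0.97 on the log2 scale from the start. Atoh8, a bHLH factor induced by BMP in several cell types, rose from 27.2 ± 1.62 to 79.8 ± 1.65 CPM (1.55, SE 0.114, adjusted p = 3.21e-08), the BMP type II receptor gene Bmpr2 from 92.3 ± 26.4 to 217 ± 12.2 CPM (1.23), and Inhba to 87.3 ± 5.96 CPM (1.12). Among the E proteins that ID proteins bind, named here after their values were seen, Tcf4 rose from 29.4 ± 3.83 to 61.5 ± 2.59 CPM and Tcf12 from 105 ± 13.3 to 163 ± 7.01 CPM, while Tcf3 lay at 146 ± 5.12 and 141 ± 4.50 CPM and was not called. The 4 ID genes were above the start at the same time.

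In CGR8 32 of the 57 pathway genes tested were lower at 5 h, 5 were higher and 20 were not called, where 52.1% of all genes were called. At 1 h 3 of 57 were called (Ccn2 and Junb higher, Gdf15 lower) against 0.270% of all genes, and at 2 h 19 (4 higher, 15 lower) against 19.9%. At 48 h 23 were called (10 higher, 13 lower) against 27.8%, and this count was 14 (3 higher, 11 lower) with a mean of at least 5 CPM and 35 (13 higher, 22 lower) with voom and quality weights. The counts at 1 and 2 h rest on single libraries: at 2 h 7 were called without 0 h replicate A or without 2 h replicate C and 9 without 0 h replicate C, and at 1 h 0 or 1 were called with any library of 0 or 1 h left out. At 5 h the median log2 fold change was -0.53 against -0.01 over all genes, where 3975 were called higher and 4327 lower. With library totals alone the median of all genes at 5 h was -0.12, and 39.7% in place of 47.9% of the called genes were higher. The summed naive stem cell markers lay at 4170 to 4406 CPM at 0 h and 5259 to 6284 CPM at 5 h, and the neural markers at 16.5 to 19.96 and 23.7 to 29.6 CPM. The primed epiblast and mesoderm markers lay at 32.4 to 33.7 CPM at 0 h and 21.5 to 22.5 CPM at 5 h, and the trophoblast markers, mostly Cdx2, at 5.19 to 6.25 and 1.62 to 1.95 CPM. The part of these markers in the changes of the pathway genes and of the 10 genes was not tested.

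All 10 regulators of SMADs tested were called lower at 5 h in CGR8, where 52.1% of all genes were called and 4327 of 15933 were called lower. Their log2 fold changes ran from -0.38 for the SMAD phosphatase gene Ppm1a to -1.16 for Ldlrad4, an inhibitor of TGF-beta signalling. The ubiquitin ligase genes Smurf1, Smurf2, Nedd4l and Rnf111 lay between them. Of the 6 SMAD transducers 5 were lower (Smad1, Smad2, Smad3, Smad4 and Smad5), and differences between the roles were not tested. Smad3, which carries TGF-beta, activin and Nodal signals, fell from 26.1 ± 1.18 to 7.79 ± 1.13 CPM (SD, n = 3), by 1.74 on the log2 scale (SE 0.147, adjusted p = 5.16e-07), and differed from NIH/3T3, where it lay at 70.7 ± 4.31 and 60.3 ± 4.84 CPM, by -1.43. Of the E protein genes Tcf3 fell from 199 ± 5.63 to 103 ± 7.997 CPM and Tcf12 from 27.4 ± 2.58 to 17.6 ± 4.51 CPM. Gdf15, a stress-induced ligand of the family, fell from 5.08 ± 0.0544 to 0.960 ± 0.0941 CPM (-2.40) and Acvr2b from 19.2 ± 1.20 to 8.08 ± 2.73 CPM (-1.25). The 5 genes called higher were the Nodal co-receptor gene Tdgf1, from 403 ± 13.4 to 866 ± 31.3 CPM (1.10, SE 0.116, adjusted p = 3.23e-06), the ligand genes Gdf3, from 175 ± 24.8 to 313 ± 41.4 CPM (0.84), and Nodal, the receptor gene Acvr2a, and Junb, from 17.4 ± 0.960 to 30.3 ± 3.06 CPM (0.80). Nodal, Acvr2a, Tcf3 and Tcf12 were singled out after their values were seen.

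At 48 h in CGR8 the co-receptor genes Tgfbr3 and Eng were among those that rose and 6 of the 7 called ligand genes fell. The co-receptor genes Tgfbr3, from 3.39 ± 0.265 to 13.8 ± 4.25 CPM (2.01, SE 0.213, adjusted p = 5.96e-06), and Eng, from 23.0 ± 1.52 to 49.7 ± 5.57 CPM (1.11, SE 0.137), rose, and so did the Nodal antagonist gene Lefty1, from 2.09 ± 0.239 to 7.30 ± 2.55 CPM (1.81). The activin subunit gene Inhbb fell from 33.0 ± 3.11 to 13.6 ± 5.54 CPM (-1.28), the matrix gene Ccn2 from 12.96 ± 0.376 to 6.33 ± 1.07 CPM (-1.03) and Gdf15 to 2.64 ± 1.149 CPM (-0.94). Of 13 receptors and co-receptors 4 were higher and 0 lower, which is near the 27.8% of all genes called, of 6 secreted antagonists 2 were higher (Grem1 and Lefty1) and 0 lower, also near it, and of 12 ligands 1 was higher (Tgfb2) and 6 lower.

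**Figure D4:**
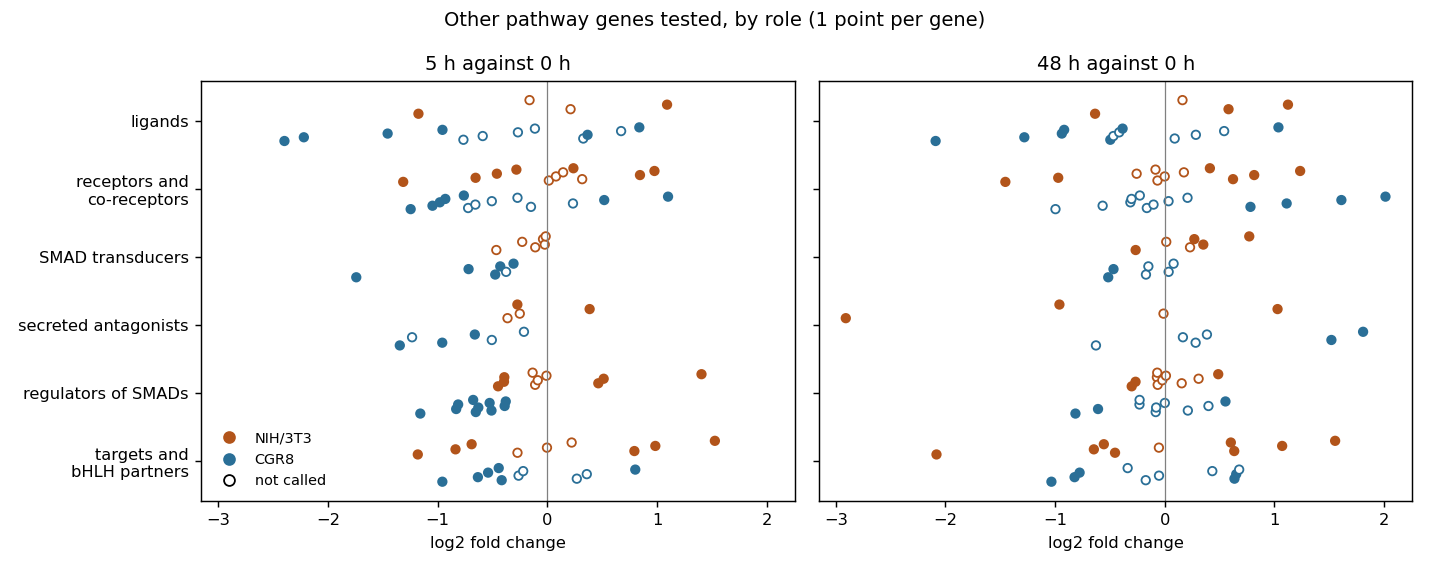
Log2 fold change (x axis) at 5 h and at 48 h against 0 h of the other pathway genes tested, grouped by role (y axis), with 1 point per gene, NIH/3T3 in orange, CGR8 in blue, filled points called and open points not called. At 5 h all 10 CGR8 regulators of SMADs lie below 0, and at 48 h the points of most roles lie on both sides.

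The genes whose levels ran most alike over the 15 libraries of a line were named for Id1, Smad7 and Skil by Pearson's r of log2 CPM, among genes of at least 10 CPM. Predicted genes, clone-named genes, identifiers without a symbol and pseudogenes were left out of the ranking. In NIH/3T3 Id1 was followed most closely by Sox9 (r = 0.958), its relative Id3 (0.954) and Chmp1b (0.939). Smad7 ran with Klf4 (0.991), Nr4a1 (0.986) and Slc25a25 (0.978), and Skil with Atf3 (0.976), Net1 (0.974) and Wsb1 (0.96). In CGR8 the closest to Id1 were Ing1 (0.85), Fam102a (0.846) and Nr4a1 (0.831), weaker than the NIH/3T3 values, and Id3 was not among them. Id1 had 1009 to 5115 counts per library in NIH/3T3 and 37 to 216 in CGR8, and the part of its low counts in these r was not tested. Smad7 ran in CGR8 with Gclm (0.979), Dazap2 (0.971) and Tmem231 (0.966), and Skil with Api5 (0.964), Uty (0.953) and Etv1 (0.942). None of the genes nearest to Smad7 or to Skil in one line was among the 3 nearest in the other. These r describe 15 libraries that share 5 time groups and their scaling, out of 8153 to 8465 genes ranked, and carry no test.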

How the data were processed

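The deposited table holds raw counts for each gene in each of the libraries. Its entries are whole numbers with differing column sums, which is how the unit was read. STAR, DESeq2 and GRCm39 are listed in the submitters' processing notes. The counting tool, its use of strand and the annotation release are not given in the sources used here. Per the labels' protocols, RNA was column-purified, and a stranded mRNA ligation kit was used for the libraries.

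Libraries were grouped by line and time from their labels, and all 30 columns were used. Ensembl identifiers, stripped of their version, were looked up in a symbol table (51880 of 57186 had a symbol). The analysis used edgeR 4.0.16 in R 4.3.3: filterByExpr (minimum count 10, minimum total 15), TMM factors, 1 model per line with a coefficient per time (15 libraries, 10 residual degrees of freedom), the quasi-likelihood F test and Benjamini-Hochberg adjustment over 13941 genes in NIH/3T3 and 15933 in CGR8. Line differences came from 1 model of 30 libraries over 17549 genes. The test was checked on simulated data. CPM use TMM-scaled totals, so a level is relative to the other transcripts of its library. Totals of 18.2 to 30.5 M counts leave the lowest genes, such as Smad6, Id2 and Id4 in CGR8, the least precise. Exon lengths and overlaps are from GENCODE M21, another release than that of the counts.

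The 10 genes and all lists were chosen with earlier results of these data known. Named from the pathway list are, per line at 5 and 48 h, the 3 highest and 3 lowest called changes with a group mean of 5 CPM or more, and for Id1, Smad7 and Skil the 3 genes most alike by Pearson's r (prior count 2). Some genes that the rule takes are not reported here. Alternatives were RLE factors, library totals alone, DESeq2 1.42.0, no filter, a stricter one at a mean of 5 CPM, a fit of only the compared groups, a block on replicate letters, and leaving out each library in turn. Voom with quality weights (limma 3.58.1) was added after seeing the data. The main fits treated no letters as pairs, and the block on letters was an alternative only. Letters met the rule for pairs only where the deviations of all 3 same-lettered libraries correlated. This held only for 1 h against 0 h in NIH/3T3, at 0.132, 0.124 and 0.286, where 2 libraries correlated best with their own letter. Single letters correlated more strongly elsewhere, as for 5 h against 0 h in CGR8, at -0.19, 0.458 and 0.527. These values neither establish a pairing there nor exclude one in the other comparisons.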

Additional observations from a re-analysis of the deposited data

Results flagged for a closer look

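The time courses of the lines differed, by the interaction test of edgeR with adjustment over all genes, for these genes. Values are the CGR8 log2 change minus the NIH/3T3 log2 change, with 3 libraries per group. For Id1 the difference was -1.32 at 1 h (adjusted p = 0.00309), -2.87 at 2 h (2.78e-09), 0.76 at 5 h (0.0225) and -1.43 at 48 h (2.5e-05), so that it was called at each time and changed sign at 5 h. For Id2 it was -1.58 at 2 h (0.00142) and -1.07 at 48 h (0.006), with 21 to 69 counts per CGR8 library behind it. For Id3 it was 0.99 at 5 h (0.000173) and -1.29 at 48 h (2.24e-06), and for Id4 -1.01 at 5 h (0.0151) and -1.79 at 48 h (1.28e-05). Smad6 differed by -3.17 at 48 h (3.53e-09), with 10 to 26 counts per CGR8 library at that time, and Smad7 by -1.01 at 2 h (0.00421). Among the co-repressors Skil differed by -2.57 at 2 h (7.43e-07) and by 1.151 at 48 h (0.00375), Tgif1 by -0.70 at 2 h (0.00353) and 0.44 at 48 h (0.0234), and Ski by -0.88 at 5 h (0.00446). Some of these calls were lost in part of the alternatives. At 5 h the call of Id1 was kept in 13 of 20 and that of Id4 in 18 of 19. The call of Tgif1 was kept in 19 of 20 at 2 h and in 16 of 20 at 48 h. Medium and cell type both differ between the lines and cannot be told apart.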

How the results depend on the processing

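Of 170 tests of the 10 genes, 97 were called, and 79 of these kept their call in every alternative fitted; 18 lost it and 19 others gained one in at least 1. Among 2591 refitted values 76 lost a call and 35 gained one, and 0 of those called in the main fit or the refit changed direction. Values called in neither fit were not compared for direction. Some of them changed sign, such as Id2 in CGR8 at 1 h, at -0.241 to 0.273 over its alternatives. The 24 pathway gene results taken by rule kept theirs in all 332 refits. The rule takes the largest changes among called genes, so this says little about the other pathway calls. In NIH/3T3 at 1 h 3 genes were called, against 1 with library totals alone, 7 with voom and quality weights and 0 for the compared groups alone. In CGR8 at 1 h 0 became 1 with no filter, 2 with voom and 1 for the groups alone. The 5 calls in CGR8 at 5 h became 3 for the groups alone. A mean of at least 5 CPM, which removes low genes from the test, left 3 of 6 calls in CGR8 at 48 h and 2 of 4 from 2 to 5 h. Voom called 3 line differences at 1 h in place of 1. For pathway genes, groups alone gave 5 of 19 calls in CGR8 at 2 h, and at 1 h voom gave 22 calls in NIH/3T3 and 9 in CGR8. No filter gave 4 in place of 2 calls in NIH/3T3 and 5 in place of 3 in CGR8 at 1 h, and groups alone gave 1 in NIH/3T3. In CGR8 at 48 h 23 calls became 14 with a mean of at least 5 CPM and 35 with voom.

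With 1 library left out, counts in NIH/3T3 ran from 0 to 6 at 1 h, 7 to 9 at 2 h, 7 to 8 at 5 h, 9 to 9 at 48 h, 8 to 9 from 2 to 5 h and 8 to 9 from 5 to 48 h. In CGR8 they ran from 0 to 0, 3 to 4, 3 to 4, 4 to 5, 4 to 5 and 4 to 6. Line differences ran from 1 to 1 at 1 h, 5 to 5 at 2 h, 2 to 4 at 5 h and 6 to 7 at 48 h, and the lines at 0 h from 9 to 10.

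The replicate block called Id2 at 1 h in NIH/3T3 (adjusted p = 0.0499), lost Id3 there (0.0549) and lost Bambi at 5 h in CGR8 (0.0589), and changed no other call of the 10 genes. In the other 11 comparisons within a line the letters did not meet the rule for pairs, which does not exclude a pairing. With library totals alone 25.2% in place of 41.3% of all called genes were higher from 2 to 5 h in CGR8, and 68.4% in place of 53.5% at 1 h. With RLE factors 31.8% in place of 42.8% of line differences at 2 h were higher. The causes were not tested. Depth limits Smad6, Id2 and Id4 in CGR8 most, with 10 to 101 counts per library.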
